A study of Mus musculus with 12 samples.

Results

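The genes of the proteasome were followed in whole retina of streptozotocin-diabetic mice and of normoglycaemic control mice. Members were taken by name, as every gene symbol made of Psm, a letter from a to g and a number, after the rows of the expression table had been named by their Entrez gene number. This gave 48 of the 24570 named genes. Of these, 46 encode subunits, activators, an inhibitor or assembly factors of the proteasome, and 2 (Psmc3ip and Psme3ip1) carry the name of a proteasome gene that their product binds and are no proteasome genes themselves. The genes Psmb3, Psmb5 and Psme2b were not analysed here, so the main chymotrypsin-like catalytic subunit, Psmb5, is missing from what follows.

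The diabetic group held 6 male C57Bl6/J mice that had received streptozotocin, which destroys the insulin-producing cells of the pancreas, at 160 mg/kg and 8 weeks of age, and whose blood glucose was above 15 mM 7 days later. The control group held 6 normoglycaemic C57Bl6/J mice without streptozotocin. Retinas were collected at 6 weeks and measured with 1 array per animal. Age at collection is not settled, because the design text gives 6 weeks as the age of the diabetic animals, younger than the age at injection. The model lacks insulin through a toxin, and the values come from the whole retina, so they mix all of its cell types.

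The proteasome is the protease of the cytosol and nucleus that breaks down proteins tagged with ubiquitin. Its core particle is a barrel of alpha and beta rings with the cutting sites inside, and a regulatory particle of ATPases and non-ATPases on its ends recognises, unfolds and feeds in the substrate. Interferon-gamma replaces the cutting subunits by the immunoproteasome subunits, which favour peptides for display on class I molecules, and other caps, the activators, open the barrel without ATP. Photoreceptors, which make large amounts of protein for their outer segments, depend on this route, and mutations that misfold rhodopsin are known to load it.

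Values were log2 RMA values (robust multi-array average), so a difference of 1 is a doubling, and levels of different genes on such arrays cannot be set against each other. All 12 arrays had the same sorted values, with a median of 5.73 and a lowest value of 5.07, and genes below that median are called dim. The tissue had the markers of retina: the mean of 5 rod genes lay between 13.05 and 13.12 in diabetic retinas and between 13.09 and 13.16 in controls. Of 3 cone genes 1 passed: Arr3, cone arrestin, ranged from 10.87 to 11.25 in diabetic retinas and from 11.27 to 11.54 in controls. Its change was -0.30 ± 0.07 (adjusted p = 0.0348), which passed in 4 of 12 fits with 1 array left out. The cone opsins Opn1sw (0.02 ± 0.04, adjusted p = 0.874) and Opn1mw (-0.01 ± 0.07, adjusted p = 0.962) did not pass. Lens crystallins varied most between arrays, from 6.00 to 8.49 in diabetic retinas, with diabetic 6 and diabetic 2 (7.79) highest, and from 6.21 to 7.15 in controls. The mean of 5 pigment epithelium genes ran from 5.90 to 7.12 in diabetic retinas, with diabetic 6 again highest and the next array at 6.36, and from 5.75 to 6.33 in controls. The label numbers of the animals run in separate ranges for the groups, so that a cohort and diabetes cannot be told apart.

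Most genes, those of the proteasome among them, differed little in level between diabetic and control retinas. One member passed the test: Psmb4, a structural subunit of the beta ring, was lower in diabetic retinas. That is 1 of 48 members (2.08%), with none higher, beside 3.24% of all genes past the threshold (1.77% lower and 1.47% higher; limma, adjusted p under 0.05 over 24570 genes). Changes of the members ran from -0.28 to 0.14 on the log2 scale, with 30 below 0, 17 above 0 and Psma8 at 0. The median change was -0.03, against -0.002 over all genes, where 51.7% of changes were below 0. In whole tissue, fewer cells of a type and less RNA per cell cannot be told apart.

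At an unadjusted p under 0.05 there were 15 members (31.3%), 7 higher and 8 lower, where 21.0% of all genes reached this level. Most proteasome genes are bright on these arrays. Among the 41 members at or above the median of gene means, 26.8% reached it, beside 27.7% of all genes that bright. The median absolute change was 0.075 in these members and 0.069 in all genes that bright. Of the changes of these members 65.9% were below 0 (median -0.043), beside 49.9% (median 0) for all genes that bright. This difference in share was not tested. The groups did not overlap for 0 of 48 members, beside 2.84% of all genes.

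The errors were small enough to bound most changes. Standard errors ran from 0.02 for Psma8 to 0.09 for Psmb1. For 41 of 48 members the 95% confidence interval of the change lay wholly within a 1.2-fold change in either direction, and for all 48 within 1.5-fold. Most genes were bounded in this way, for of all 24570 genes the interval lay within 1.2-fold for 21716 and within 1.5-fold for 24423. These are intervals of single genes without a correction for their number, and RMA shrinks differences of dim genes, so the bound is looser for the 7 members whose mean lay below the array median (Psma5, Psma8, Psmb8, Psmb9, Psmb11, Psmg4 and Psmc3ip).

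**Figure D1:**
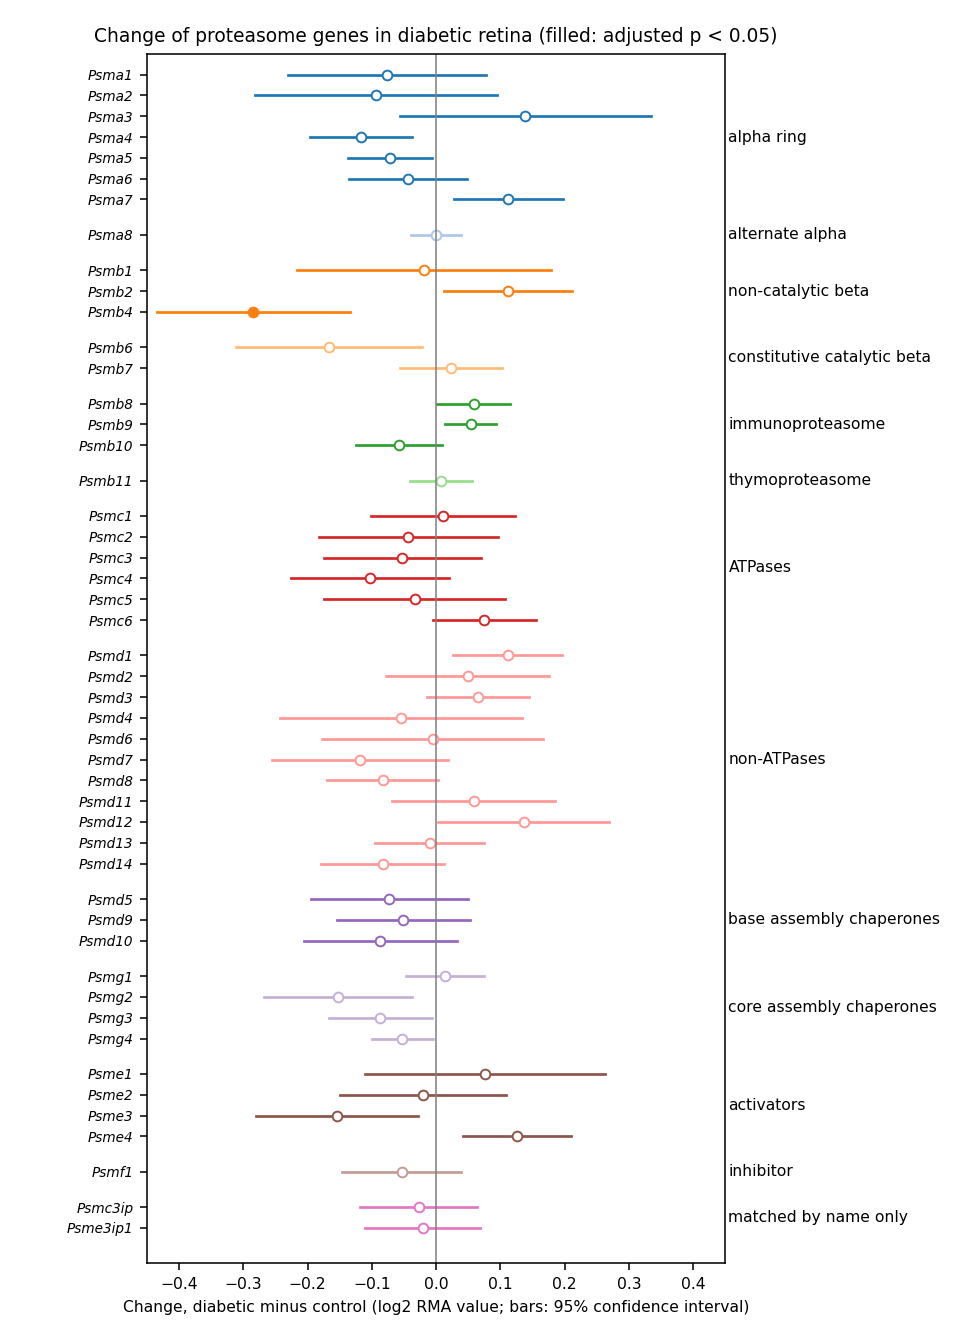
Change of each of the 48 genes, diabetic minus control, on the log2 scale (x axis), grouped by part of the proteasome (right). Points are limma estimates from 6 diabetic and 6 control arrays and bars their 95% confidence intervals. The filled point, Psmb4 at -0.28, is the one gene with an adjusted p under 0.05, and changes on both sides of 0 stand within most parts.

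The beta ring held the one called gene. Psmb4 had values from 7.37 to 7.61 in diabetic retinas, with a median of 7.50, and from 7.60 to 7.96 in control retinas, with a median of 7.77. All 6 diabetic arrays lay below the control mean, and the groups met at their edge only. The log2 value of Psmb4 fell by 0.28 ± 0.07 (SE, n = 6 per group; limma, adjusted p = 0.0475), a ratio of 0.821 of diabetic over control. The call sat close to the threshold: with 1 array left out at a time the change stayed between -0.32 and -0.25, but the adjusted p was under 0.05 in 2 of 12 fits, those without diabetic 2 (0.0493) and without control 5 (0.0321), and reached 0.0940 without diabetic 3. It was 0.0732 with the lens crystallin mean as a covariate and 0.105 without diabetic 2 and diabetic 6 together, the arrays with the most crystallin. The other structural beta subunits that were measured, Psmb1 (-0.02 ± 0.09, adjusted p = 0.932) and Psmb2 (0.11 ± 0.05, adjusted p = 0.184), did not pass, and Psmb2 lay on the other side of 0.

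Of the constitutive cutting subunits, Psmb6 carries the caspase-like site and Psmb7 the trypsin-like site. Psmb6 ranged from 9.56 to 9.80 in diabetic retinas (median 9.69) and from 9.62 to 10.04 in controls (median 9.88). All 6 diabetic values lay below the control mean, yet the lowest control fell inside the diabetic range, and the change of -0.17 ± 0.07 did not pass (adjusted p = 0.176). Psmb7 ranged from 9.57 to 9.76 in diabetic retinas (median 9.62) and from 9.54 to 9.70 in controls (median 9.62), and its change was 0.02 ± 0.04 (adjusted p = 0.758). The groups overlapped for Psmb7, and its 95% interval ran from -0.06 to 0.10.

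The upstream sequences of Psmb4, the gene that passed, and of Psmb6, the cutting subunit with the larger change, are shown because proteasome genes are known to be induced together through the antioxidant response element, the site of the transcription factor Nfe2l1. Each is the 250 bases before the start of the gene, 5′ to 3′ on the strand of the gene, from RefSeq on GRCm38.p6, for Psmb4 chr3:94886959-94887208 on the minus strand and for Psmb6 chr11:70525107-70525356 on the plus strand. Capitals mark a match to TGACNNNGC, searched on both strands.
Psmb4: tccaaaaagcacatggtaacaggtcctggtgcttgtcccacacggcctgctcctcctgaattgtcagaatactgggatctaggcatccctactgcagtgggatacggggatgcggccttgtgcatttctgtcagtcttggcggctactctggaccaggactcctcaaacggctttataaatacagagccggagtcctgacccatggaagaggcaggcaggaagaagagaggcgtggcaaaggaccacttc
Psmb6: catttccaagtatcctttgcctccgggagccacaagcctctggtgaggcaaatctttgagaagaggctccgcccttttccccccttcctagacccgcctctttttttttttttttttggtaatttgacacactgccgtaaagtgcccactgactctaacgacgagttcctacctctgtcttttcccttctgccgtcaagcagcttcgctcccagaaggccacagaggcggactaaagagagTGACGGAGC
Psmb6 held 1 match, which starts 9 bases before the gene start, and Psmb4 held none. Over the 44 such windows found for 40 of the 48 members, 4 held the element (9.09%; Psmb6, Psmc6, Psmd9 and Psmd12), beside 10.2% of all 32851 windows. A CCAAT box (CCAAT, both strands) stood in 15 member windows (34.1%) and in 33.8% of all. The gamma-activated sequence (TTCNNNGAA, both strands) stood in 2 member windows (4.55%), those of Psmb8 and Psmg1, and in 7.02% of all, and the interferon regulatory factor element in those of Psmd4 and Psmd9, and in 2.98% of all. These matches describe the letters and no binding was measured.

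The alpha ring, whose subunits gate the entrance of the barrel, had 5 of 7 changes below 0, beside 51.7% over all genes, and none past the test. Psma4 ranged from 7.11 to 7.31 in diabetic retinas (median 7.25) and from 7.27 to 7.41 in controls (median 7.34). All 6 diabetic values lay below the control mean, and the change was -0.12 ± 0.04 (adjusted p = 0.0960). Psma7 lay on the other side, with 6 of 6 diabetic arrays above the control mean (0.11 ± 0.04, adjusted p = 0.127). Psma3 had the largest positive change of all members, 0.14 ± 0.09 (adjusted p = 0.407), with values from 8.27 to 8.65 in diabetic retinas (median 8.48) and from 8.11 to 8.52 in controls (median 8.40). The Psma3 value of 2 controls, 2 and 3, stood apart below the others. Psma1 (-0.08 ± 0.07), Psma2 (-0.09 ± 0.09), Psma5 (-0.07 ± 0.03) and Psma6 (-0.04 ± 0.04) had adjusted p-values from 0.200 to 0.598. Psma5 was dim, with a mean of 5.30 near the lowest values of the arrays, although every core particle needs this subunit, and whether its probes respond was not tested. Psma8, the alternate alpha subunit of testis, was dim as well (5.29 to 5.35 in diabetic retinas, 5.28 to 5.37 in controls) with a change of 0.00 ± 0.02 (adjusted p = 1).

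**Figure D2:**
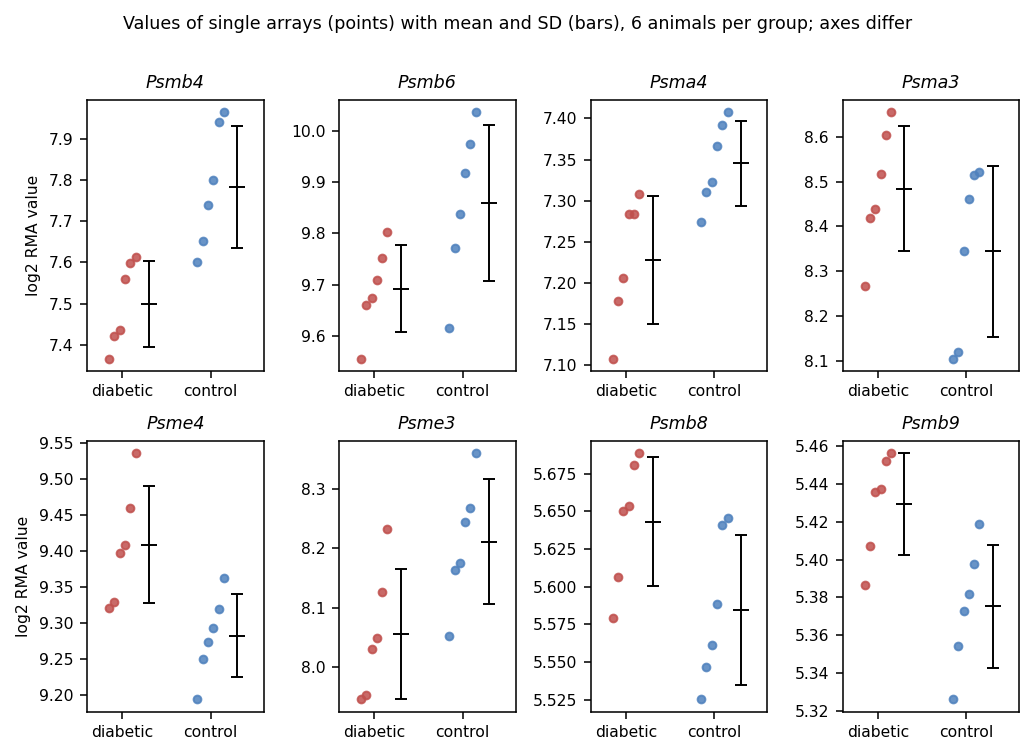
Log2 RMA values (y axes, which differ) of 8 genes in single arrays, diabetic left and control right; points are drawn from low to high within a group, and bars give mean and SD of 6 animals. Psmb4 groups touch at 7.61 against 7.60, and each of the other genes overlaps between the groups.

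None of the 3 immunoproteasome subunits passed. Psmb8 and Psmb9 were dim, and Psmb10 lay above the array median with a mean of 6.00. Psmb8, which replaces Psmb5, ranged from 5.58 to 5.69 in diabetic retinas (median 5.65) and from 5.53 to 5.65 in controls (median 5.58), a change of 0.06 ± 0.03 (adjusted p = 0.231). Psmb9, which replaces Psmb6, ranged from 5.39 to 5.46 in diabetic retinas (median 5.44) and from 5.33 to 5.42 in controls (median 5.38), and 6 of 6 diabetic arrays lay above the control mean (0.05 ± 0.02, adjusted p = 0.123). Psmb10, which replaces Psmb7, had a change below 0, with values from 5.88 to 6.06 in diabetic retinas (median 5.97) against 5.96 to 6.09 in controls (median 6.04), and a change of -0.06 ± 0.03 (adjusted p = 0.303). The 3 subunits of one particle thus did not share a sign. Psmb11, the thymus subunit, was dim, with values from 5.33 to 5.42 in diabetic retinas (median 5.38) and from 5.32 to 5.41 in controls (median 5.39), and a change of 0.01 ± 0.02 (adjusted p = 0.888).

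Within single arrays, the log2 value of Psmb9 minus that of Psmb6, the subunit it replaces, averaged -4.26 ± 0.08 in diabetic retinas and -4.48 ± 0.13 in controls (SD, n = 6 each), a difference of 0.22 that came mostly from Psmb6. For Psmb10 minus Psmb7 the means were -3.66 ± 0.06 in diabetic retinas and -3.58 ± 0.10 in controls, a difference of -0.08. Both pairs overlapped between the groups. These 2 differences are given without a test.

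In the RefSeq annotation Psmb9 and Psmb8 lie on chromosome 17 in turn with Tap1 and Tap2, which encode the pump that carries peptides to class I molecules. Tap1 (-0.03 ± 0.03, adjusted p = 0.660) and Tap2 (0.07 ± 0.03, adjusted p = 0.252) did not pass. Markers of the immune cells that carry much of the immunoproteasome were mostly dim in both groups. The mean of 7 microglia and macrophage genes ran from 5.64 to 5.73 in diabetic retinas and from 5.69 to 5.75 in controls, with 4 of 7 dim, and the mean of 9 lymphocyte and neutrophil genes from 5.30 to 5.34 in diabetic retinas and from 5.32 to 5.33 in controls, with 9 of 9 dim. Of the first list 0 passed and of the second 1, the neutrophil enzyme Mpo, which ranged from 5.44 to 5.52 in diabetic retinas and from 5.54 to 5.58 in controls, without overlap. Its change of -0.07 ± 0.02 (adjusted p = 0.0367) passed in 4 of 12 fits with 1 array left out. The part of these cells in the values of Psmb8 to Psmb10 was not tested.

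The regulatory particle had no member past the test. Its 6 ATPases form the ring that pulls the substrate in, and their changes ran from -0.10 (Psmc4, adjusted p = 0.324) to 0.07 (Psmc6). Psmc6 had the smallest p of the ring, with values from 9.75 to 9.97 in diabetic retinas (median 9.91) and from 9.77 to 9.89 in controls (median 9.81), and a change of 0.07 ± 0.04 (adjusted p = 0.270). Psmc1 (0.01), Psmc2 (-0.04), Psmc3 (-0.05) and Psmc5 (-0.03) lay closer to 0. For all 6 ATPases the 95% interval stayed within 1.2-fold.

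Among the 11 non-ATPases, 5 changes were above 0 and 6 below, with a median of -0.01. Psmd1, the large scaffold of the base that holds the ubiquitin receptor Adrm1, ranged from 9.92 to 10.11 in diabetic retinas (median 9.94) and from 9.76 to 9.94 in controls (median 9.85). All 6 diabetic arrays lay above the control mean, with diabetic 1 well above the rest, and the change was 0.11 ± 0.04 (adjusted p = 0.130). Psmd12 of the lid changed by 0.14 ± 0.06 (adjusted p = 0.228), with 5 of 6 diabetic arrays above the control mean. Diabetic 2 held the lowest value of Psmd12 (9.23), and without this array the change was 0.19 ± 0.04 (adjusted p = 0.0438). It was the only pass in 12 fits with 1 array left out. Over these fits the change of Psmd12 ran from 0.11 to 0.19, with an adjusted p of up to 0.372. Psmd11 (0.06 ± 0.06), Psmd3 (0.07 ± 0.04) and the other scaffold, Psmd2, where shuttles dock (0.05 ± 0.06), also lay above 0. On the other side stood Psmd7 (-0.12 ± 0.06, adjusted p = 0.308) and Psmd14, the enzyme that cuts ubiquitin off the substrate and partner of Psmd7 (-0.08 ± 0.04), with Psmd8 (-0.08 ± 0.04), the ubiquitin receptor Psmd4 (-0.05 ± 0.09), Psmd6 (-0.01 ± 0.08) and Psmd13 (-0.01 ± 0.04).

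In some arrays, most subunits lay on one side of their mean. In diabetic 2, 7 of the 29 constitutive core and regulatory subunits lay above their mean over the 12 arrays, with a median deviation of -0.06. In control 5 it was 8 of 29, with a median deviation of -0.07. In controls 1 and 3, 22 and 23 of the 29 lay above their mean, with median deviations of 0.10 and 0.06. Over the brighter genes of the table (mean at or above the median of gene means), the median deviation of any array lay between -0.01 and 0.01. In diabetic 2, 1 of 6 ATPases (median deviation -0.04), 3 of 11 non-ATPases (-0.09) and 3 of 12 core subunits (-0.07) lay above their mean. In control 5 it was 1 of 6 ATPases (-0.13), 2 of 11 non-ATPases (-0.16) and 5 of 12 core subunits (-0.04), and in control 3 it was 5 of 6 (0.12), 7 of 11 (0.03) and 11 of 12 (0.06). The other 5 diabetic arrays held 15 to 18 of the 29 above their mean, and the counts of the groups overlapped.

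**Figure D3:**
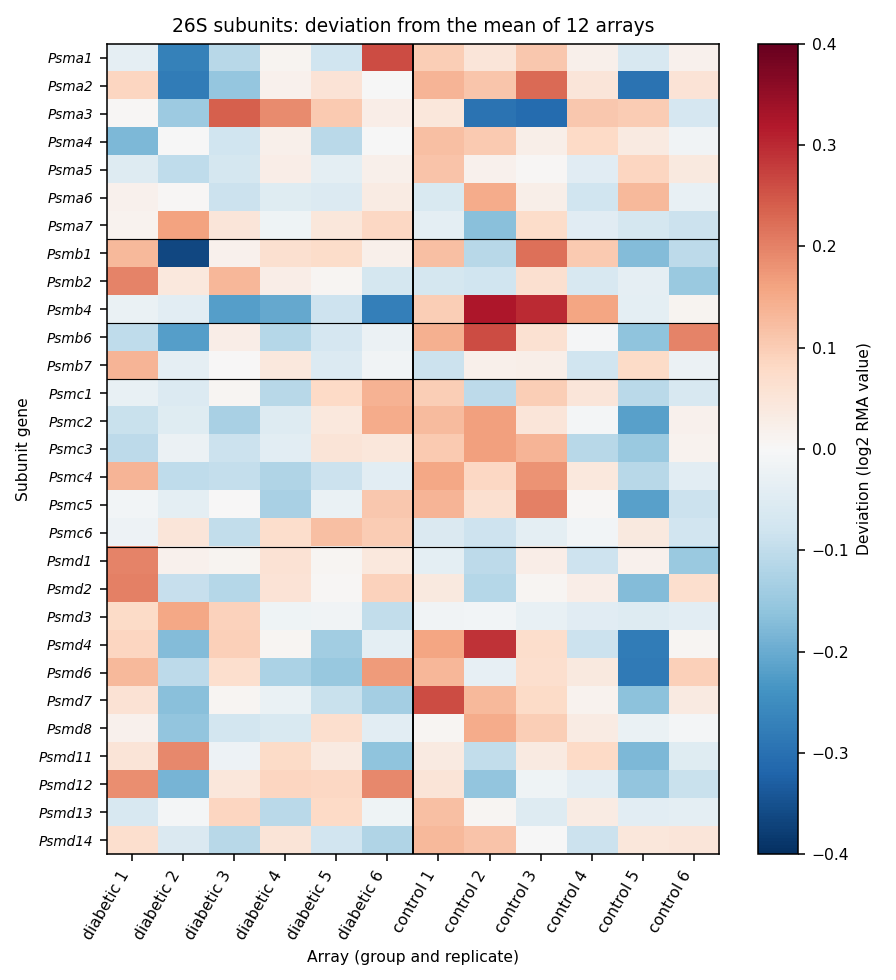
Deviation of 29 core and regulatory subunit genes (rows, in the order alpha ring, structural beta, cutting beta, ATPases, non-ATPases) from their own mean over 12 arrays (columns, diabetic left of the line), as colour from -0.4 to 0.4 on the log2 scale. Diabetic 2 and control 5 are mostly below 0 and controls 1 and 3 mostly above, while Psmb4 is below 0 in all 6 diabetic arrays.

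None of the 4 activators passed, with 2 changes above 0 and 2 below. Psme4, which encodes PA200, a single-chain cap found in the nucleus, ranged from 9.32 to 9.54 in diabetic retinas (median 9.40) and from 9.19 to 9.36 in controls (median 9.28). All 6 diabetic arrays lay above the control mean, and the change of 0.13 ± 0.04 had the smallest adjusted p after Psmb4 (0.0929). Psme3, the gamma subunit of PA28, a nuclear cap, ranged from 7.95 to 8.23 in diabetic retinas (median 8.04) and from 8.05 to 8.36 in controls (median 8.21), with 5 of 6 diabetic arrays below the control mean (-0.15 ± 0.06, adjusted p = 0.154). Psme4 minus Psme3 within an array averaged 1.35 ± 0.11 in diabetic retinas and 1.07 ± 0.14 in controls (SD, n = 6 each), given without a test because the genes were paired after their values were seen.

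Psme1 and Psme2 encode the alpha and beta subunits of the interferon-inducible PA28 ring and lie on chromosome 14 with only Emc9 between them. Psme1 ranged from 7.23 to 7.53 in diabetic retinas (median 7.43) and from 7.08 to 7.58 in controls (median 7.29), a change of 0.08 ± 0.09 (adjusted p = 0.661). Psme2 ranged from 6.29 to 6.63 in diabetic retinas (median 6.36) and from 6.32 to 6.54 in controls (median 6.41), a change of -0.02 ± 0.06 (adjusted p = 0.884). Both overlapped over most of their range. Probes of Psme2 may also read its close copy Psme2b. The inhibitor Psmf1, known as PI31, ranged from 8.46 to 8.66 in diabetic retinas (median 8.58) and from 8.53 to 8.75 in controls (median 8.61), a change of -0.05 ± 0.04 (adjusted p = 0.509).

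The assembly factors had 6 of 7 changes below 0, beside 51.7% over all genes, and none past the test. Psmg1 to Psmg4 help to build the alpha ring, and Psmg2 ranged from 7.51 to 7.68 in diabetic retinas (median 7.61) and from 7.55 to 7.88 in controls (median 7.80). All 6 diabetic values of Psmg2 lay below the control mean (-0.15 ± 0.05, adjusted p = 0.129). Control 5 held the low control value, and without it Psmg2 passed (-0.19 ± 0.04, adjusted p = 0.0332). That was the only pass in 12 fits with 1 array left out, and the adjusted p reached 0.220 among the others. Psmg3 (-0.09 ± 0.04, adjusted p = 0.202) and the dim Psmg4 (-0.05 ± 0.02, adjusted p = 0.195) also had 6 of 6 diabetic arrays below the control mean, whereas Psmg1 changed by 0.01 ± 0.03. The chaperones of the regulatory base, Psmd5 (-0.07 ± 0.06), Psmd9 (-0.05 ± 0.05) and Psmd10, known as gankyrin (-0.09 ± 0.05), had adjusted p-values from 0.393 to 0.588. Psmd10 ranged from 5.97 to 6.31 in diabetic retinas (median 6.05) and from 6.07 to 6.24 in controls (median 6.21). The genes matched by name only, Psmc3ip (-0.03 ± 0.04) and Psme3ip1 (-0.02 ± 0.04), did not pass. Psmc3ip was dim and ranged from 5.56 to 5.80 in diabetic retinas (median 5.67) and from 5.62 to 5.80 in controls (median 5.69).

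Partners of the proteasome from 6 further lists held 3 genes past the test among 55 measured (5.45%), beside 3.24% of all genes. The groups did not overlap for 4 of the 55 (7.27%), beside 2.84% of all genes. Most genes of these lists lay above the array median, and brighter genes passed more often. Among the 12285 genes at or above the median of gene means, 294 were called higher and 336 lower. The groups did not overlap for 452 of them. Whether brightness accounts for the shares in these lists was not tested. In the list of proteasome-associated factors, 1 of 12 measured genes passed, upward, with 7 of 12 changes above 0 and a median of 0.02. That gene was Ecpas, also called Ecm29, which binds both core and regulatory particle and is known as a checkpoint of their assembly. Ecpas ranged from 10.08 to 10.21 in diabetic retinas (median 10.13) and from 9.87 to 10.02 in controls (median 9.93). The groups did not overlap, and Ecpas rose by 0.20 ± 0.03 on the log2 scale (adjusted p = 0.00783), a call that held in 12 of 12 fits with 1 array left out (adjusted p from 0.00765 to 0.0221). The lid subunit Sem1 (-0.13 ± 0.04, adjusted p = 0.120), the ligase Ube3c (0.12 ± 0.03, adjusted p = 0.0718), the deubiquitinases Usp14 (-0.04 ± 0.05) and Uchl5 (0.09 ± 0.05) and the core maturation factor Pomp (-0.13 ± 0.10) did not pass.

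Of the 5 measured ubiquitin and E1 genes 0 passed, at a median of -0.03. Of these genes 2 were dim. Ubb had a mean of 5.26 in diabetic and 5.28 in control retinas, and Rps27a of 5.58 and 5.52. Whether the probes of these ubiquitin genes respond was not tested. Uba1, the main ubiquitin-activating enzyme, had the smallest p (-0.08 ± 0.03, adjusted p = 0.132), with values from 11.29 to 11.40 in diabetic retinas (median 11.35) and from 11.35 to 11.51 in controls (median 11.42). Of 12 shuttles and segregase genes 0 passed as well (median -0.04). Ubqln2, a shuttle that carries tagged proteins to the proteasome, ranged from 8.47 to 8.79 in diabetic retinas (median 8.62) and from 8.71 to 8.97 in controls (median 8.80), a change of -0.20 ± 0.06 (adjusted p = 0.0872). Of 9 regulators of proteasome genes 0 passed (median -0.01): Nfe2l1, the factor that induces them, changed by -0.07 ± 0.04 (adjusted p = 0.353). Sel1l, part of the ligase complex of the endoplasmic reticulum that controls Nfe2l1, had the smallest p (0.11 ± 0.03, adjusted p = 0.0888), with values from 9.89 to 10.01 in diabetic retinas (median 9.99) and from 9.76 to 9.94 in controls (median 9.85).

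On the interferon route, 1 of 9 genes passed, Jak2, a kinase of the interferon-gamma receptor. Jak2 ranged from 8.93 to 9.08 in diabetic retinas (median 8.99) and from 8.73 to 8.86 in controls (median 8.82), without overlap, and rose by 0.18 ± 0.03 on the log2 scale (adjusted p = 0.0114). Jak1, the other kinase of that receptor, did not overlap between the groups either, with values from 10.19 to 10.29 in diabetic retinas (median 10.23) and from 10.06 to 10.18 in controls (median 10.15), but its change of 0.10 ± 0.02 did not pass (adjusted p = 0.0544). The dim Ifng, the interferon itself, had a change of -0.05 ± 0.02 (adjusted p = 0.122), with values from 5.32 to 5.40 in diabetic retinas and from 5.37 to 5.44 in controls. Irf1 (-0.05 ± 0.02) and Nlrc5 (-0.02 ± 0.01), transcriptional regulators further along that route, did not pass, and both were dim. Among 8 genes of peptide loading, 1 passed, downward. Pdia3, an oxidoreductase of the loading complex and of glycoprotein folding, ranged from 9.67 to 9.93 in diabetic retinas (median 9.83) and from 9.97 to 10.22 in controls (median 10.11), without overlap, and the log2 value fell by 0.29 ± 0.05 (adjusted p = 0.0191). Jak2 and Pdia3 each passed in 12 of 12 fits with 1 array left out.

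**Figure D4:**
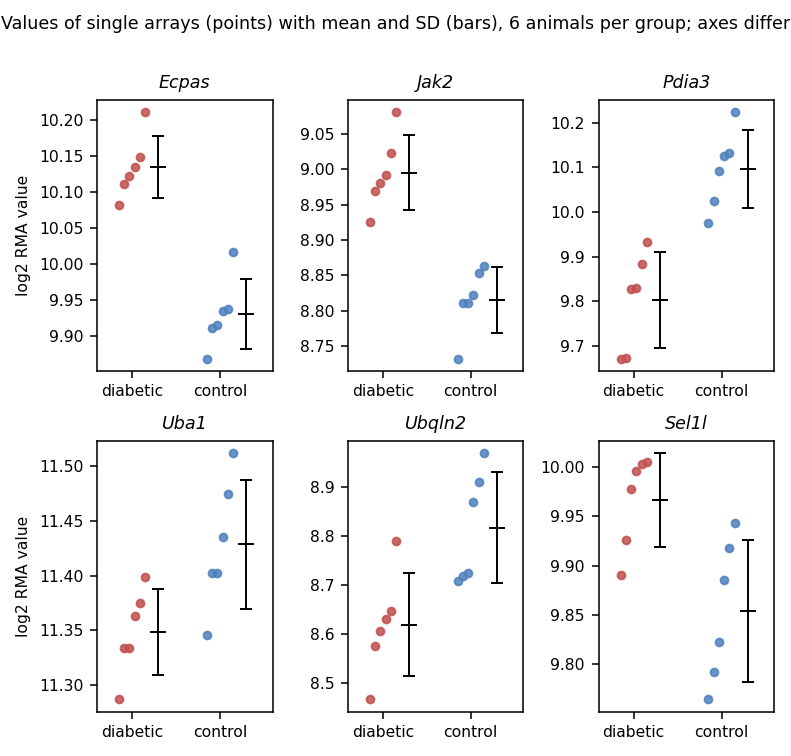
Log2 RMA values (y axes, which differ) of 6 partner genes in single arrays, diabetic left and control right; points are drawn from low to high within a group, and bars give mean and SD of 6 animals. The groups do not overlap for Ecpas, Jak2 and Pdia3, and they overlap for Uba1, Ubqln2 and Sel1l.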

How the data were processed

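The deposited table held 1 log2 value per Entrez gene number and array, made by the authors with RMA per the submitters' processing notes. The version and the probe set definition are not given in the sources used here. Of 24973 lines, 24015 were named by the platform annotation and 559 more by RefSeq (GRCm38.p6), and 399 had no name. For 4 symbols on several lines the brightest line was kept, which left 24570 genes. Sorted values were identical in the 12 arrays, so a shift of most genes in 1 direction would not show.

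Diabetic minus control was fitted in limma 3.58.1 under R 4.3.3 (lmFit, then eBayes), two-sided, without a filter on dim genes. P-values were adjusted by Benjamini-Hochberg over the 24570 genes, and 0.05 was the threshold. The procedure was tested on simulated data, whose noise was drawn for each gene separately and held no shift shared by genes of an array. Errors of changes are standard errors and those of levels SDs over 6 animals. The number of arrays limits the precision. Values are given per array for the genes past the test, the cutting and immunoproteasome subunits, the activators, the inhibitor, the gene of smallest p in each part and list, and the largest change in each direction. Other members are given by their change. Psma7, Psmd12, Jak1, Ifng, Arr3 and Mpo were singled out after their values were seen. The members and lists were chosen with earlier results of these data known. Alternatives covered filters on dim genes, centring, the trend with genomic span, weights of arrays, the variance model, a block for the replicate number, a crystallin covariate, the threshold, and arrays left out.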

Additional observations from a re-analysis of the deposited data

Results flagged for a closer look

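In 4 of 96 groups of 6 arrays (48 genes in 2 groups), 1 array stood apart: its gap to the nearest array, divided by the range of the group, exceeded Dixon's 95% critical value. Chance alone flags about 1 group in 20. Psmb1 in diabetic retinas had a ratio of 0.772, with diabetic 2 at 8.95 and the next value at 9.33. Psmd1 in diabetic retinas had 0.732, with diabetic 1 at 10.11 above the next value of 9.97. Psmc4 in diabetic retinas had 0.689, with diabetic 1 at 9.04 above 8.86. Psma2 in controls had 0.663, with control 5 at 8.40 below 8.75.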

How the results depend on the processing

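The call of Psmb4, and with it the count of 1 lower member, rested on the settings. With the span trend removed (adjusted p = 0.0504), with robust eBayes (0.0530), with the replicate number as a block (0.0713), with the crystallin covariate (0.0732) and without diabetic replicates 2 and 6 together (0.105) the count was 0, while the change of Psmb4 stayed between -0.29 and -0.27 in all planned settings other than single arrays left out. With 1 array left out the count of lower members ran from 0 to 2 and that of higher members from 0 to 1. At an adjusted p under 0.10 there were 1 higher member (Psme4) and 2 lower ones (Psma4 and Psmb4), and 1967 genes in all. The count over all genes, 797, was 379 without diabetic replicates 2 and 6 together, 476 with the crystallin covariate and 506 with the replicate block, and 325 to 835 with 1 array left out. The median change of the members stayed between -0.05 and -0.02. The correlation of the deviations of same-numbered animals ran from -0.16 to 0.17, and that of differently numbered animals from -0.19 to 0.23. Whether the numbers pair the animals cannot be settled by these values. Changes near 0 turned their sign with single arrays left out: Psmb7 ran from -0.00098 to 0.041, Psme2 from -0.065 to 0.0028 and Psmb11 from -0.0041 to 0.018. Ecpas, Jak2 and Pdia3 passed in all planned settings. The causes were not tested. No signal over background was used here, which limits what can be said of the 7 dim members.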
